A study of Mus musculus with 4 samples.

Results

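The cells described here were the MHC class II high, non-B cells of Kit-positive mouse bone marrow. They were chosen from measured values. A barcode counted as a kept cell when it had 500 or more genes and 1000 or more gene UMIs (unique molecular identifiers, which count captured RNA molecules), with no more than 10% of UMIs mitochondrial. A kept cell was a member when Cd74, H2-Aa, H2-Ab1 and H2-Eb1 together held at least 50 of every 10000 of its gene UMIs, with 0 UMIs of Cd79a and fewer than 3 of Igkc. By this rule 165 of 19758 kept cells in 3 libraries were members: 25 in control, 17 in Mll3 deleted and 123 in Mll4 deleted. The Mll3/4 deleted library held 1 such cell among 7408 kept cells and was not described further.

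All libraries came from CD45.2+Kit+ bone marrow taken 10 weeks after transplantation, and each group was 1 library: the control, and marrow that was Mll3 deleted, Mll4 deleted or Mll3/4 deleted. Mll3 and Mll4 are the histone methyltransferases encoded by Kmt2c and Kmt2d. Barcoded antibodies were read out beside RNA with the 3.1 version of the 10x Genomics 3′ kit, so that transcripts and 13 surface antibodies were counted in the same cells. The Cre or promoter behind the deletions, the age and sex of the animals, the conditioning of the hosts and the pooling of animals are not given in the sources used here.

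With 1 library per group no difference between groups could be tested, and every comparison is between libraries. The intervals given are 95% intervals and cover counting error only: exact for levels, shares and ratios of counts, and on the log scale for ratios of shares. Depth differed: the deposited libraries held from 36413830 (Mll4 deleted) to 174795636 (control) gene UMIs, and the median member held 8803 gene UMIs in control, 9267 in Mll3 deleted and 2959 in Mll4 deleted. The Mll4 deleted members carried transcripts of Y-linked genes and no Xist UMI, whereas the members in control and Mll3 deleted carried Xist and no Ddx3y or Eif2s3y UMI, so sex and Mll4 deletion cannot be told apart. Levels are UMIs of a gene per 1000000 gene UMIs summed over the cells of a group (CPM). Kmt2d stood at 37.7 CPM in control members and 25.1 CPM in Mll4 deleted members, and Kmt2c at 67.0 CPM in control and 85.8 CPM in Mll3 deleted members. These 3′ tags may lie outside the deleted parts of the genes and do not check the labels. Between 6 and 16 kept barcodes were shared by any pair of libraries, and no member's barcode was also a member's barcode in another library.

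MHC class II molecules are pairs of an alpha and a beta chain that carry peptides from endocytosed proteins to the cell surface, where CD4 T cells read them. The invariant chain Cd74 escorts the new pair and fills its groove. The DM molecule then exchanges the remnant of Cd74 for peptide, and the DO molecule restrains DM. In bone marrow, B cells and dendritic cells carry class II constitutively, under the transactivator Ciita, which is recruited to a promoter module that ends in a Y box. Conventional dendritic cells fall into the cDC1 type, which cross-presents antigen, and the cDC2 type, which favours CD4 T cells. Both arise from Flt3-expressing progenitors that can still carry some Kit.

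The promoters of class II genes are shown because the members were chosen by some of these genes and the others were higher in the same cells. Each line is the 120 bases before the RefSeq transcription start on GRCm38.p6, written along the gene's strand, with the Y box TGATTGG in capitals.
H2-Aa, chr17:34287824-34287943, minus strand: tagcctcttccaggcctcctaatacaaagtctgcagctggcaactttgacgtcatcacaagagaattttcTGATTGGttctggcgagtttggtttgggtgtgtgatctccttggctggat
H2-Eb1, chr17:34305747-34305866, plus strand: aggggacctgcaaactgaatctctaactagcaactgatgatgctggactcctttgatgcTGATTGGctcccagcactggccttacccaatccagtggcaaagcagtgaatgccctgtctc
H2-DMb1, chr17:34153071-34153190, plus strand: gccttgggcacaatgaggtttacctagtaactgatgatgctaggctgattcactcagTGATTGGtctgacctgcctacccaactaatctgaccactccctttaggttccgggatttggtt
H2-DMb2, chr17:34145129-34145248, plus strand: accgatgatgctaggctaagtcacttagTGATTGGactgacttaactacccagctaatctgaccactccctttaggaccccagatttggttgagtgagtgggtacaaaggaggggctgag
H2-Oa, chr17:34092259-34092378, plus strand: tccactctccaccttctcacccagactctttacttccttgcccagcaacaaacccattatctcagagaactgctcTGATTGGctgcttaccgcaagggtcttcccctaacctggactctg
H2-Ob, chr17:34238785-34238904, plus strand: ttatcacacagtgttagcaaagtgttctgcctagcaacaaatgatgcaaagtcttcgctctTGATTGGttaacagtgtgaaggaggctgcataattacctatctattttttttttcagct
The search was for TGATTGG on both strands. The reference table held 9 promoters of 8 genes of the pathway, 2 of them of H2-DMa. The letters were in 7 of these 9 windows (both without them belong to H2-DMa, and that of H2-Eb2 is not shown) and in 1691 of 32851 promoters of the same length (5.15%). A match of letters is a description and shows no binding. H2-Ab1 and Ciita are named only.

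Class II high non-B cells made up 2.18% of kept cells (95% interval 1.81 to 2.59) in Mll4 deleted, 0.322% (0.208 to 0.475) in control and 0.268% (0.156 to 0.429) in Mll3 deleted marrow. The share in Mll4 deleted was 6.77-fold that in control (4.41 to 10.4), and the share in Mll3 deleted was 0.833-fold that in control (0.450 to 1.54), an interval that includes no difference. These shares rest on a Kit-positive gate, and the rule was drawn with the excess in Mll4 deleted already known.

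The excess in Mll4 deleted lay among the cells of 1 hashtag. The antibody panel held 2 hashtags, and the labels do not say what each marks. This split was chosen after seeing the data. Among Hashtag2-only cells 103 of 2484 were members in Mll4 deleted (4.15%, 3.40 to 5.01), against 10 of 3609 in control (0.277%, 0.133 to 0.509), a 15-fold difference (7.83 to 28.6). Among Hashtag1-only cells 13 of 2781 were members in Mll4 deleted (0.467%, 0.249 to 0.798), against 13 of 3780 in control (0.344%, 0.183 to 0.587), a 1.36-fold difference (0.631 to 2.93). Within the Mll4 deleted library the share was 8.87-fold higher under Hashtag2 than under Hashtag1 (4.99 to 15.8). The same ratio was 0.806 in control (0.354 to 1.84) and 1.25 in Mll3 deleted (0.438 to 3.55), so the hashtag classes overlapped within their intervals there. Whatever Hashtag2 marks in that library and the deletion itself cannot be told apart as the setting of the excess.

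**Figure D1:**
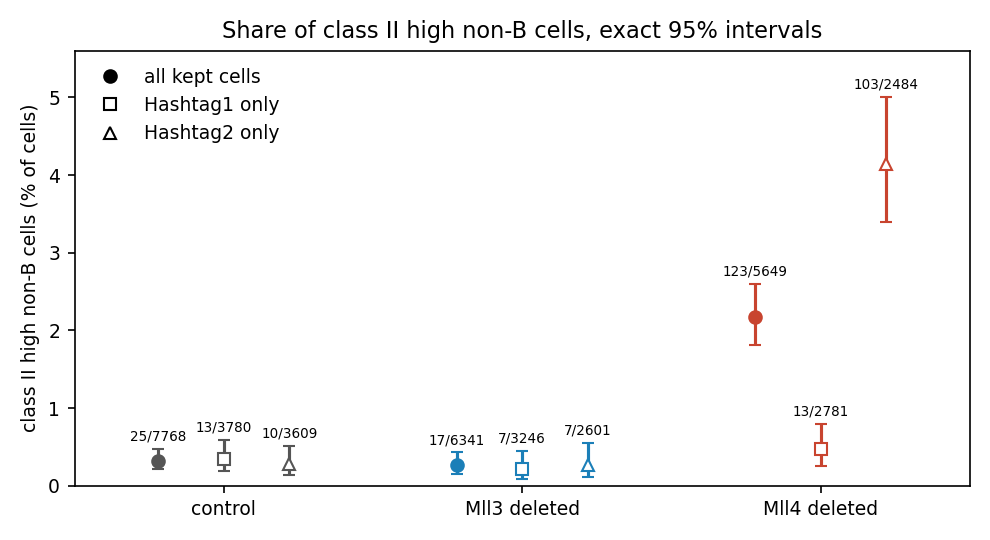
Share of kept cells that were class II high non-B cells, in percent on the vertical axis, for control, Mll3 deleted and Mll4 deleted, over all kept cells and within each hashtag class. Points are shares and bars are exact 95% intervals: Hashtag2-only cells of Mll4 deleted stand at 4.15%, and its Hashtag1-only cells, at 0.467%, overlap the control interval.

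A doublet is a droplet that holds more than 1 cell. Doublet scores from Scrublet were high in most members of control and Mll3 deleted: the highest scores, set at 0.8% of cells per 1000 barcodes, held 24 of 25 members in control, 12 of 17 in Mll3 deleted and 13 of 123 in Mll4 deleted. By the same threshold 8.01%, 7.59% and 5.29% of all kept cells in these libraries scored high. Without the high-scoring cells 1 of 7146 cells was a member in control (0.0140%), 5 of 5860 in Mll3 deleted (0.0853%) and 110 of 5350 in Mll4 deleted (2.06%). The excess in Mll4 deleted was then larger, and the order of Mll3 deleted and control was turned. Both hashtags were carried by 2 of 25, 3 of 17 and 7 of 123 members in control, Mll3 deleted and Mll4 deleted. Gene levels in control members therefore come from cells nearly all of which scored high as doublets, and the part of this in each result was not tested unless a value is given.

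The 4 class II genes of the rule are given as a description. The invariant chain gene Cd74 stood at 11077 CPM in control members, 9984 CPM in Mll3 deleted and 13170 CPM in Mll4 deleted, against 7.15, 14.7 and 18.6 CPM in the other kept cells of these libraries. H2-Aa, the I-A alpha chain, stood at 6508, 6065 and 7014 CPM, and H2-Ab1, the I-A beta chain, at 7496, 6665 and 7753 CPM. H2-Eb1, the I-E beta chain, stood at 4795, 3979 and 6788 CPM. Every member carried H2-Aa and H2-Ab1 UMIs, and Cd74 UMIs were found in 122 of 123 members of Mll4 deleted. The summed class II level per cell had a median of 278 per 10000 UMIs in control (88.6 to 481), 251 in Mll3 deleted (55.9 to 608) and 397 in Mll4 deleted (51.7 to 851). Few cells lay near the threshold of 50: the lowest member and the highest non-member stood at 88.6 and 42.7 per 10000 UMIs in control, 55.9 and 47.7 in Mll3 deleted, and 51.7 and 37.4 in Mll4 deleted. A further 10, 34 and 15 cells of control, Mll3 deleted and Mll4 deleted were class II high but carried the B-cell transcripts and were left out.

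The rest of the class II machinery, which the rule did not use, was present in members of all 3 libraries. Ciita, the master transactivator of class II genes, stood at 247 CPM in control, 241 CPM in Mll3 deleted and 374 CPM in Mll4 deleted members. The other kept cells held 0.421 CPM of Ciita in control and 0.683 CPM in Mll4 deleted, far below every group of members. Ciita UMIs were found in 81 of 123 members of Mll4 deleted, at a median of 2959 gene UMIs per cell, and in 1 of 408 cells of the same library high in the erythroid genes Car1 and Klf1. H2-DMa, the alpha chain of the DM peptide editor, stood at 741, 692 and 707 CPM in members of control, Mll3 deleted and Mll4 deleted, against 58.9 CPM in other control cells and 32.7 CPM in other Mll4 deleted cells.

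Genes that prepare peptides and genes that restrain DM were also higher in members than in the other cells. Cathepsin S, Ctss, which trims the invariant chain, stood at 498 CPM in control, 375 CPM in Mll3 deleted and 924 CPM in Mll4 deleted members, against 10.8 CPM in other Mll4 deleted cells. Ifi30, the lysosomal thiol reductase that unfolds antigen, stood at 565, 606 and 904 CPM. H2-Oa and H2-Ob, the 2 chains of the DO inhibitor, stood at 138 and 37.7 CPM in control members, 188 and 96.5 CPM in Mll3 deleted, and 262 and 199 CPM in Mll4 deleted. The DM beta chain genes H2-DMb1 and H2-DMb2 are near-identical copies whose reads the counting could have split, so their separate values are uncertain: H2-DMb2 stood at 96.3, 123 and 278 CPM and H2-DMb1 at 473, 499 and 422 CPM. A pair of the pathway's widely expressed genes did not stand apart. Cathepsin L, Ctsl, stood at 13.7 CPM in Mll4 deleted members and 25 CPM in the other cells, and Rfxap, a subunit of the constitutive RFX factor that binds class II promoters, at 45.6 and 40.8 CPM.

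Levels were compared as log2 ratios with 10 CPM added to each value, over genes with at least 20 UMIs in either group, and a gene was called at a ratio of at least 2-fold. The contrast between members and other cells is the one the rule used, so its counts are a description. Among the 12413 genes compared between members and other kept cells of Mll4 deleted, 6.08% were called higher in members and 6.04% lower. In that contrast 9 of 12 class II pathway genes outside the rule were higher, with a median log2 ratio of 4.06. In control 6.39% of 14546 genes were called higher in members than in other cells and 8.15% lower, and in Mll3 deleted 7.2% of 14261 genes were higher and 8.54% lower. Of the class II pathway 8 of 13 genes were higher in members in each of these libraries, with median log2 ratios of 3.24 and 3.42.

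The comparison of Mll4 deleted with control members is between unlike mixtures of cells. In the clusters described further on, clusters 3 and 4 held 11 and 5 of the 25 control members, and clusters 1 and 2 held 60 and 31 of the 123 Mll4 deleted members. Between members of Mll4 deleted and control 3357 genes were compared, with a median log2 ratio of 0.11, and 8.7% were called higher in Mll4 deleted and 2.71% lower. The split was turned in Hashtag1-only members, where 40 genes were higher and 108 lower. With 25 control cells a gene could reach 20 UMIs through Mll4 deleted alone, which favours a higher ratio. Nothing is therefore read from counts of called list genes in this comparison. Medians of lists are given over all their genes with a UMI, with no minimum, unless stated. For the 14 class II pathway genes that median was 0.77, with 11 of 14 above 0. H2-DMb2 (1.44) and H2-Ob (2.13) stood more than 2-fold higher in Mll4 deleted, H2-Ob with 9 UMIs in control.

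**Figure D2:**
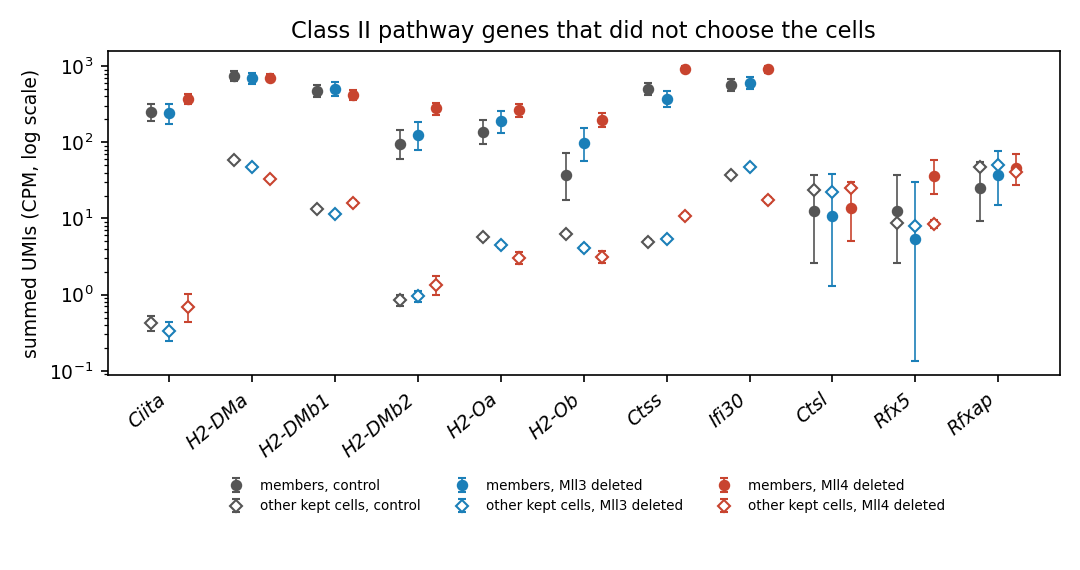
Levels of 11 class II pathway genes outside the rule, in CPM on a logarithmic axis, in class II high non-B cells (filled) and the other kept cells (open diamonds) of control, Mll3 deleted and Mll4 deleted. Ciita lies between 241 and 374 CPM in members of all 3 libraries and below 1 CPM in the other cells of control and Mll4 deleted, while Ctsl and Rfxap lie in the same range in both.

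Class I genes, which present peptides from the cell's own proteins, were also higher in members than in the rest of the library. The 10 genes of the list summed to 8520.1 CPM in Mll4 deleted members against 3139 CPM in other Mll4 deleted cells. In that contrast 8 of 10 were called higher, against 6.08% of all genes compared. They summed to 6508 CPM in control members and 5780 CPM in Mll3 deleted members. Between Mll4 deleted and control members the median log2 ratio over the 10 genes was 0.57. The genes past 2-fold were Tap1 and Nlrc5. Tap1, a subunit of the peptide transporter, stood at 465 CPM against 159 CPM in control. Nlrc5, the class I transactivator, stood at 45.6 CPM against no UMI in control, at least 3.63-fold higher. Nlrc5 reached 20 UMIs through Mll4 deleted alone, which favours a higher ratio. B2m, the light chain shared by all class I molecules, stood at 1713 CPM in control, 1110 CPM in Mll3 deleted and 2350 CPM in Mll4 deleted members, which falls short of a call. The immunoproteasome subunit Psmb8 went the other way, at 1198, 1201 and 792 CPM.

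Genes of costimulation and dendritic cell maturation summed to 426.7 CPM in Mll4 deleted members, against 150.8 CPM in control, 193.0 CPM in Mll3 deleted and 12.1 CPM in other Mll4 deleted cells. Of its 12 genes 4 reached 20 UMIs in Mll4 deleted members and none did in control. The minimum thus favoured the called genes Cd83, Relb and Il4i1, and the calls are not read. With no minimum the median log2 ratio over the 12 genes was 0.49, and 9 of 12 lay above 0. Cd83, a surface protein of activated dendritic cells, stood at 25.1 CPM in control, 21.4 CPM in Mll3 deleted and 128 CPM in Mll4 deleted members. Relb, a transcription factor of the alternative NF-kB pathway, stood at 16.8, 26.8 and 61.6 CPM, and Il4i1, a secreted amino acid oxidase, at 4.19, 26.8 and 63.9 CPM. Cd86, a ligand of CD28, stood at 71.2, 59.0 and 100 CPM and was not called. Genes of fully matured, migrating dendritic cells were scarce in all libraries: Ccr7, the receptor that guides them to lymph nodes, stood at 4.19, 0 and 6.85 CPM. The higher sum was seen in Hashtag2-only members, at 504 CPM (431 to 586) in Mll4 deleted against 200 CPM (114 to 325) in control. In Hashtag1-only members the sum was 93.2 CPM (25.4 to 239) in Mll4 deleted against 153 CPM (92.4 to 240) in control, and these intervals overlapped.

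The label of the cells was checked against markers of the cell types that can carry class II. Genes shared by conventional dendritic cells summed to 2006 CPM in control, 1737 CPM in Mll3 deleted and 1707 CPM in Mll4 deleted members, against 278, 196 and 424 CPM in the other kept cells. In Mll4 deleted 8 of 9 were called higher in members than in other cells, with a median log2 ratio of 3.15, in control 8 of 9 (2.64) and in Mll3 deleted 7 of 8 (3.34). Flt3, the receptor whose ligand drives dendritic cell formation, stood at 121, 182 and 210 CPM in members of control, Mll3 deleted and Mll4 deleted. Zbtb46, a transcription factor of the conventional dendritic lineage, stood at 33.5, 69.7 and 68.5 CPM, and the integrin Itgax (CD11c) at 46.1, 64.3 and 84.4 CPM. Between Mll4 deleted and control members Traf1, a signalling adaptor, was higher (121 against 46.1 CPM, 11 UMIs in control) and Batf3, a transcription factor that cDC1 cells need, lower (79.9 against 180 CPM), and the median of the 9 genes was 0.07.

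Markers of cDC1 cells were high in members of every library. They summed to 2630 CPM in control, 3732 CPM in Mll3 deleted and 3368 CPM in Mll4 deleted members, against 79.8, 72.2 and 127 CPM in the other kept cells and 39.2 CPM in Mll4 deleted cells high in Car1 and Klf1. The chemokine receptor Xcr1 stood at 151, 284 and 176 CPM, and Clec9a, which senses dead cells, at 147, 172 and 146 CPM. Cadm1, an adhesion molecule, stood at 46.1 CPM in control, 123 CPM in Mll3 deleted and 164 CPM in Mll4 deleted. Tlr3, a receptor for double-stranded RNA, stood at 58.6, 182 and 137 CPM. Against the other cells of their library 9 of 10 cDC1 markers were called higher in control members, 10 of 10 in Mll3 deleted and 8 of 8 in Mll4 deleted. Cadm1 and Tlr3 stood more than 2-fold higher in Mll4 deleted than in control, on 11 and 14 UMIs in control. With no minimum the median log2 ratio over the 10 genes was 0.47.

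Markers of cDC2 cells were fewer and lay apart from those of cDC1. They summed to 444 CPM in control, 231 CPM in Mll3 deleted and 675 CPM in Mll4 deleted members, against 111, 82.5 and 292 CPM in the other kept cells. Of its 10 genes 5 reached the minimum of 20 UMIs, 4 of them through Mll4 deleted alone, among these every called gene (Cd209a, Sirpa and Clec4a2), so the calls are not read. With no minimum the median log2 ratio over the 9 genes with a UMI was 0.43. The lectin gene Cd209a stood at 62.8 CPM in control, 37.5 CPM in Mll3 deleted and 199 CPM in Mll4 deleted members. Sirpa, an inhibitory receptor, stood at 37.7, 26.8 and 103 CPM, and the lectin gene Clec4a2 at 20.9, 0 and 86.7 CPM. Irf4, a transcription factor of cDC2 cells, stood at 4.19, 0 and 9.13 CPM, and Clec4a4, which marks a splenic cDC2 subset, had no UMI in any member.

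Markers of B cells and macrophages were low, those of plasmacytoid dendritic cells were uneven, and those of monocytes were not low as a list. Of the B-lineage genes outside the rule, Pax5, Igll1, Fcer2a, Cr2 and Fcmr had no UMI in any member, and the list summed to 289 CPM in control, 150 CPM in Mll3 deleted and 192 CPM in Mll4 deleted. The class II high cells with B transcripts held 10054, 10037 and 6471 CPM of the same list. Plasmacytoid dendritic cell markers summed to 394, 327 and 299 CPM, with Ly6d at 0 in all members and Siglech, a defining receptor, at 0 CPM in control and Mll3 deleted and 11.4 CPM in Mll4 deleted. Macrophage markers summed to 293, 204 and 162 CPM, of which Apoe held 126 and 198 CPM in control and Mll3 deleted and 6.85 CPM in Mll4 deleted. Monocyte markers were mixed. The chemokine receptor Ccr2 stood at 582, 467 and 703 CPM, whereas F13a1 stood at 4.19, 5.36 and 9.13 CPM. Fn1 and Vcan had no UMI. In clusters 1, 2, 3 and 4, described further on, the monocyte list summed to 2183, 1597, 1024 and 4390 CPM. Genes shared by conventional dendritic cells summed there to 1615, 2393, 1459 and 1827 CPM. The monocyte gene Ms4a6c was found in 55 of the 65 cells of cluster 1, at 990 CPM. Of T, NK and innate lymphoid markers Cd3e, Cd3g and Gzma had no UMI, and Klrd1, a lectin-like receptor subunit, stood at 155, 96.5 and 287 CPM.

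**Figure D3:**
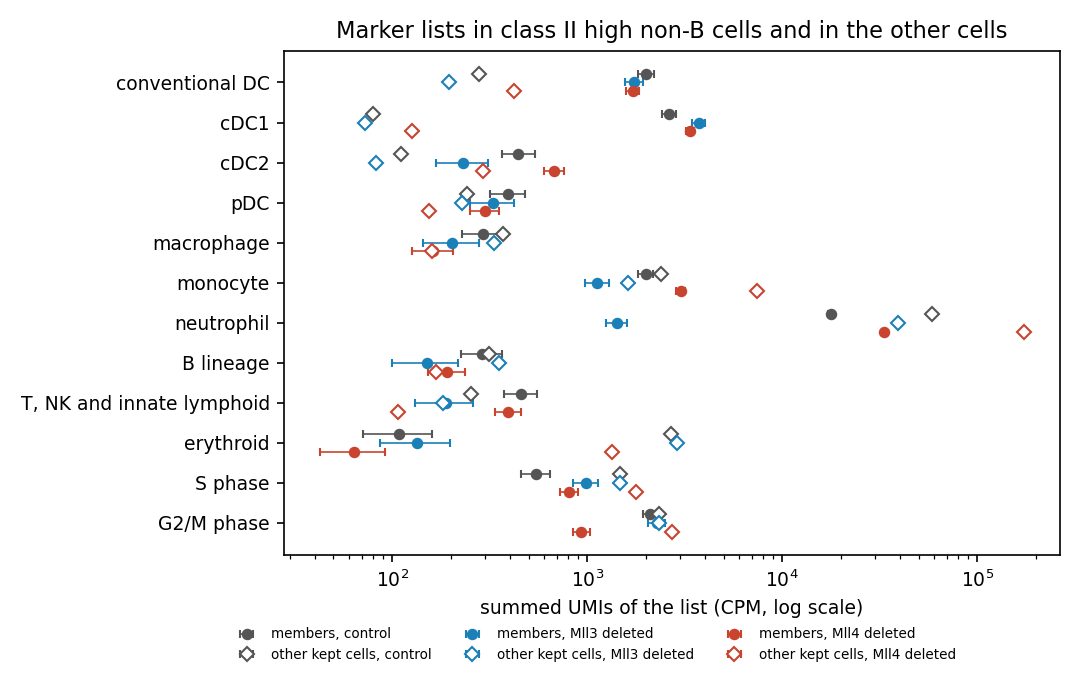
Summed levels of 12 marker lists, in CPM on a logarithmic axis, in class II high non-B cells and the other kept cells of control, Mll3 deleted and Mll4 deleted. The conventional dendritic and cDC1 lists are higher in members in all 3 libraries. The neutrophil and erythroid lists are lower in the members of Mll4 deleted than in its other cells.

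The members were clustered among themselves without the genes of the rule, which gave 4 clusters over the 3 libraries. Since the clusters were made from these genes, their leading genes are descriptions. Cluster 2 held 40 cells (6 control, 3 Mll3 deleted, 31 Mll4 deleted) and was cDC1-like: all 10 cDC1 markers were found in at least 10% of its cells. It was led by Ppt1, Naaa, Clec9a, Psap, Xcr1 and Tlr3. Xcr1 stood at 516 CPM in its cells and 103 CPM in the other members, and Clec9a at 446 and 70.8 CPM. Irf8, the transcription factor that cDC1 cells depend on, stood at 2022 and 577 CPM.

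Cluster 1 held 65 cells (3 control, 2 Mll3 deleted, 60 Mll4 deleted) and was not given a cell type name. It had 6 of 10 cDC2 markers in at least 10% of its cells, but also 6 of 10 monocyte, 6 of 10 neutrophil and 5 of 10 cDC1 genes, and its monocyte genes summed to 2183 CPM. Clusters 3 and 4 each had 5 of 10 cDC2 markers in at least 10% of their cells. The leading genes of cluster 1 were Cd209a (466 CPM against 19.8 CPM in the other members), Ifitm1, Ms4a6b, S100a4, Wfdc17, Cxcl9, Il1b, Klrd1, Cd83 and Clec4a1. Cd209a was the only gene of the cDC2 list among them, Klrd1 is on the T and NK list, and 57 of the 60 Mll4 deleted cells were Hashtag2-only. Since 60 of 65 cells came from 1 library, the cluster may be that library rather than a cell type. The 3 control cells of cluster 1 held 1646 CPM of cDC2 markers (1176 to 2241) and 329 CPM of cDC1 markers, and the 60 Mll4 deleted cells held 1144 CPM (989 to 1315) and 688 CPM.

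The other members could not be named. Cluster 3, with 38 cells (11 control, 8 Mll3 deleted, 19 Mll4 deleted), was led by Nrgn, Pf4, Ctla2a, Il7r, Bcl2, Adgrg1 and Angpt1, and had the lowest median class II score, 144 per 10000 UMIs. Cluster 4, with 22 cells (5 control, 4 Mll3 deleted, 13 Mll4 deleted), was led by the neutrophil granule genes Ngp, S100a9, Camp, Chil3 and S100a8 with the mitotic gene Cenpf. The highest doublet scores held 5 of 65 cells in cluster 1 (7.69%), 8 of 40 in cluster 2 (20%), 20 of 38 in cluster 3 (52.6%) and 16 of 22 in cluster 4 (72.7%).

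The clusters differed in antigen presentation genes. Class II pathway genes outside the rule summed to 6438 CPM in cluster 1, 3382 CPM in cluster 2, 2106 CPM in cluster 3 and 2662 CPM in cluster 4. Costimulation and maturation genes summed to 737, 263, 142 and 103 CPM in the same order. Cd83 stood at 238 CPM in cluster 1 and at no more than 37.6 CPM in the others, and Cd86 at 112 CPM in cluster 1 and 161 CPM in cluster 2. Markers of cDC1 cells summed to 626, 8527, 1534 and 3093 CPM, and cDC2 markers to 1218, 86.0, 355 and 401 CPM.

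Libraries were then set side by side within a cluster. In cluster 2 the class II pathway genes summed to 3126 CPM in 6 control cells (2651 to 3663) and 3566 CPM in 31 Mll4 deleted cells (3214 to 3946), and these intervals overlapped. Costimulation genes there summed to 307 CPM (172 to 506) and 229 CPM (147 to 340), which overlapped too. The cDC1 markers of cluster 2 were higher in Mll4 deleted, at 9811 CPM (9221 to 10429.8) against 6416 CPM in control (5726 to 7167). In cluster 1 the class II pathway genes summed to 4937 CPM in 3 control cells (4093 to 5904) and 6494 CPM in 60 Mll4 deleted cells (6118 to 6887). Costimulation genes summed there to 123 CPM (25.5 to 361) and 846 CPM (714 to 995), the first on few UMIs. Genes of these lists led the clusters (Cd83 in cluster 1, Clec9a and Xcr1 in cluster 2), so the differences are a description. Doublet scores were high in 24 of 25 control members, and the part of this here was not tested.

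**Figure D4:**
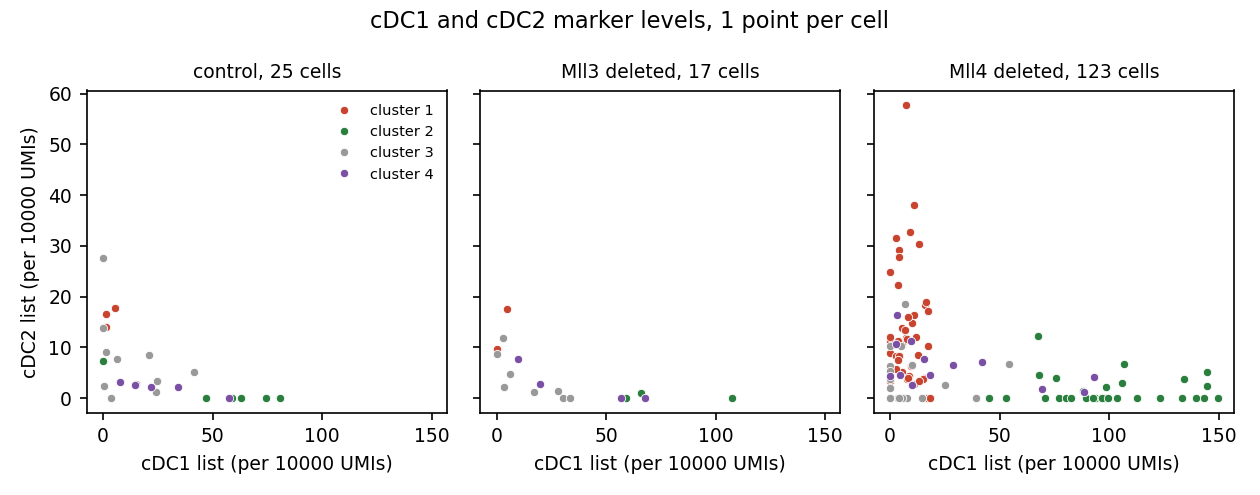
Each point is a class II high non-B cell in control, Mll3 deleted or Mll4 deleted (3 panels), placed by its summed cDC1 markers (horizontal) and cDC2 markers (vertical) per 10000 gene UMIs and coloured by cluster. Cluster 2 lies along the horizontal axis and cluster 1 along the vertical axis, and most points of cluster 1 are in the Mll4 deleted panel (60 of 65).

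As a share of kept cells, cluster 1 made up 1.06% of Mll4 deleted (0.811 to 1.37), 0.0386% of control (0.00797 to 0.113) and 0.0315% of Mll3 deleted. These shares of cluster 1 depend on the clustering: at resolution 1 the cluster highest in cDC2 markers held 31 cells, 25 of them Mll4 deleted, and after thinning to 1000 UMIs it held 93, of which 78 were Mll4 deleted. Cluster 2 made up 0.549% of Mll4 deleted and 0.0772% of control. Under Hashtag2 cluster 1 made up 2.29% of Mll4 deleted and 0.0554% of control cells, and cluster 2 made up 0.886% and 0.0831%. Under Hashtag1 cluster 1 was 2 of 2781 cells in Mll4 deleted (0.0719%) and 1 of 3780 in control (0.0265%), and cluster 2 was 0.252% and 0.0794%. The share of members with at least 2 cDC1 UMIs was 68% in control and 68.3% in Mll4 deleted, and 44% and 40.7% after each cell was thinned to 1000 UMIs. For cDC2 markers the shares were 64% and 42.3%, and after thinning 16% and 21.1%.

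Single genes were then named by the size of their ratio between Mll4 deleted and control members. Ccl5, a chemokine for T cells, stood at 82.1 CPM in 14 Mll4 deleted members and had no UMI in control members, at least 6.54-fold higher. The interferon-induced GTPase genes Iigp1 (148 against 8.38 CPM, 17.7-fold, 4.71 to 149) and Gbp2 (173 against 16.8 CPM, 10.4-fold, 3.88 to 39.0) were higher in Mll4 deleted members. In the other kept cells both were also higher in Mll4 deleted, by log2 ratios of 0.61 and 0.62. Timd4, a receptor for phosphatidylserine, stood at 57.0 CPM against no UMI (at least 4.54-fold), and Cd72, an inhibitory lectin of B cells, at 73.0 against 4.19 CPM (17.4-fold, 2.91 to 710). Nr4a1, an immediate early nuclear receptor gene, stood at 52.5 CPM against no UMI (at least 4.18-fold). Rasgef1b and Gm4951 also had no UMI in control members and stood at 47.9 and 45.6 CPM in Mll4 deleted.

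Some of these differences rested on 1 cell, were seen under 1 hashtag only or were shared by the whole library. Il1b, a cytokine gene, stood at 93.6 against 4.19 CPM, and 54% of its UMIs in Mll4 deleted members came from 1 cell. Pf4, a platelet chemokine gene, stood at 123 against 12.6 CPM, with 80% from 1 cell. In Hashtag1-only members of both libraries Ccl5, Il1b, Nr4a1, Cd72, Rasgef1b and Gm4951 had no UMI. The 13 such members of Mll4 deleted held 42907 gene UMIs, where 3 UMIs equal 69.9 CPM. Over all Mll4 deleted members Nr4a1, Rasgef1b and Gm4951 lay below that level and Ccl5, Cd72 and Il1b not far above it. No UMI there does not show absence. Iigp1 and Gbp2 had log2 ratios of 1.74 and 1.98 in Hashtag1-only members. In those of Mll4 deleted 1 UMI equals 23.3 CPM, so both ratios rest on few UMIs and are not read. The predicted gene Gm10076 stood at 1643 CPM in Mll4 deleted members and 197 CPM in control members, 8.35-fold higher (6.21 to 11.5), and at 1409 and 270 CPM in the other kept cells of these libraries.

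The lowest ratios between Mll4 deleted and control members followed the same rule. Among them Sdc4, Cd82, H1f0, Fdps, Ccl6 and Arl11 reached 20 UMIs through control alone, which favours a lower ratio. Sdc4, a heparan sulfate proteoglycan, stood at 9.13 CPM in Mll4 deleted and 130 CPM in control members, and the tetraspanin gene Cd82 at 34.2 and 159 CPM. The galectin gene Lgals1 stood at 100 and 503 CPM (0.200-fold, 0.138 to 0.284) and S100a10, an annexin partner, at 169 and 637 CPM (0.265-fold, 0.198 to 0.352). Both were also lower in the other kept cells of Mll4 deleted, at 46.5 against 158 CPM for Lgals1 and 66.5 against 196 CPM for S100a10. The linker histone genes Hist1h1c (105 against 377 CPM), Hist1h1e (297 against 946 CPM) and H1f0 (36.5 against 138 CPM) were lower. Fdps, a sterol synthesis enzyme, stood at 36.5 and 155 CPM, and the chemokine gene Ccl6, Arl11 and Ube2c were also on this side.

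G2/M genes summed to 933 CPM in Mll4 deleted members, 2111 CPM in control and 2268 CPM in Mll3 deleted, with a median log2 ratio of Mll4 deleted over control of -1.04 over the 10 genes with no minimum. This rested on the cells of cluster 4: without them the median over genes with at least 20 UMIs went from -1.09 to 0.57, in the opposite direction, and Ube2c, a mitotic ubiquitin-conjugating enzyme, moved to 0.0035. Within Hashtag2-only members the median was -0.28. Per cell the G2/M list had medians of 1.54, 4.02 and 1.33 per 10000 UMIs in control, Mll3 deleted and Mll4 deleted. Against the other kept cells of their own library Mll4 deleted members held less, with 10 of 10 genes called lower and a median of -1.46. Over all genes in that contrast 6.04% were called lower. S phase genes summed to 544, 987 and 808 CPM, with a median log2 ratio of 0.37 over the 10 genes with no minimum.

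Neutrophil transcripts were unevenly spread over the members. The list summed to 17736 CPM in control, 1416 CPM in Mll3 deleted and 33329.7 CPM in Mll4 deleted members, but the median member held only 20.4, 15.3 and 52.3 per 10000 UMIs, with highest cells at 1507, 41.0 and 3125. The 13 Mll4 deleted cells of cluster 4 held 147563 CPM. The 60 cells of cluster 1 from that library held 5397 CPM (5055 to 5756), and its 408 cells high in Car1 and Klf1 held 5718 CPM (5660 to 5777), a level like that of cluster 1. Primary granule genes summed to 586, 697 and 1250.4 CPM, among them Mpo (386 CPM in Mll4 deleted against 151 CPM in control members) and Elane (278 against 62.8 CPM, 15 UMIs in control). In the other Mll4 deleted cells that list summed to 5019.7 CPM.

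Lineages without class II had low sums in the members, but not all their genes lay below the level of the other cells. Erythroid genes summed to 109 CPM in control, 134 CPM in Mll3 deleted and 63.9 CPM in Mll4 deleted members, basophil and mast cell genes to 33.5, 32.2 and 59.3 CPM, and eosinophil genes to 4.19, 5.36 and 9.13 CPM. Megakaryocyte genes summed to 25.1, 32.2 and 162 CPM, endothelial and stromal genes to 29.3, 32.2 and 54.8 CPM, and plasma cell genes to 109, 75.1 and 116 CPM. Among the Mll4 deleted members most of the megakaryocyte sum was Pf4, at 123 CPM (92.6 to 161), against 141 CPM in the other kept cells of that library.

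Lists of cell state and of progenitors gave mixed values. Immediate early genes summed to 431 CPM in control, 552 CPM in Mll3 deleted and 936 CPM in Mll4 deleted members, with a median log2 ratio of Mll4 deleted over control of 1.13 over the 8 genes with no minimum. Jun stood at 370 against 101 CPM and Fos at 112 against 33.5 CPM, with 24 and 8 UMIs in control. Interferon response genes summed to 934, 767 and 844 CPM, against 190 CPM in the other Mll4 deleted cells. Over the 10 genes with no minimum the median log2 ratio of Mll4 deleted over control was 0.63, with 6 of 10 above 0. Stem and multipotent progenitor genes summed to 281, 445 and 548 CPM. Kit itself, the gene of the sorted surface protein, stood at 147, 182 and 292 CPM in members, against 165 CPM in the other Mll4 deleted cells.

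Members of Mll3 deleted and control were compared over 1849 genes, of which 1.41% were called higher in Mll3 deleted and 3.84% lower. No class II pathway gene of 7 was called, with a median log2 ratio of 0.07. Over the 10 cDC1 markers with no minimum the median was 0.58, and all 10 lay above 0; the calls, Tlr3 among them, reached 20 UMIs through Mll3 deleted alone and are not read. The genes on the higher side included the S phase genes Rrm2 (134 against 37.7 CPM) and Pclaf (402 against 134 CPM). Rif1, a regulator of replication timing, was among them (118 against 20.9 CPM). Rrm2 and Rif1 had fewer than 20 UMIs in control members, so they too were compared through Mll3 deleted alone and are not read. On the lower side Ltf, Ngp, Lcn2, S100a9, Camp, S100a8 and Chil3 led. Of the UMIs of the neutrophil granule genes Ltf, Ngp, Lcn2, S100a9, S100a8 and Camp in control members, 87% to 97% came from 1 cell.

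Against the other kept cells of Mll4 deleted, the largest ratios in members included genes outside the lists. S100a4, a calcium-binding protein of motile cells, stood at 602 CPM in members and 2.65 CPM in the others (227-fold, 179 to 291). Ifi205, an interferon-inducible gene, stood at 240 and 0.199 CPM (1202-fold), the brain-type creatine kinase gene Ckb at 235 and 0.513 CPM (459-fold), and the secreted glycoprotein gene Olfm1 at 324 and 4.16 CPM (77.9-fold). Cxcl9, an interferon-gamma-induced chemokine, stood at 329 and 0.883 CPM (372-fold) and was found in 23 of the members. Gm2a, a lysosomal lipid carrier, stood at 564 and 13.4 CPM. The lowest in members were genes of other lineages: the erythroid carbonic anhydrase genes Car1 (9.13 against 630 CPM) and Car2 (41.1 against 566 CPM), the basophil protease gene Mcpt8 (no UMI against 64.0 CPM, at least 9.34-fold lower) and the neutrophil genes Retnlg (9.13 against 145 CPM) and Olfm4 (no UMI against 73.9 CPM, at least 10.8-fold lower).

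Within the Mll4 deleted library the Hashtag2-only members (103 cells) and Hashtag1-only members (13 cells) could be set side by side. Of 2571 genes compared, 16% were called higher under Hashtag2 and 4.63% lower. Cxcl9, the interferon-gamma-induced chemokine, stood at 418 CPM in 22 Hashtag2-only cells and had no UMI in Hashtag1-only cells, at least 5.98-fold higher. Tmem176a, a membrane protein of dendritic cells, stood at 249 CPM against no UMI (at least 3.56-fold), and Traf1 at 151 CPM against no UMI (at least 2.16-fold). A gene reaches 20 UMIs more easily in the larger group, so lists are given by their sums and not by counts of calls. Costimulation and maturation genes summed to 504 CPM (431 to 586) under Hashtag2 and 93.2 CPM (25.4 to 239) under Hashtag1. Class II pathway genes summed to 4741 CPM (4512 to 4980) and 3076 CPM (2574 to 3648), and cDC1 markers, in the other direction, to 3427 CPM (3232 to 3630) and 4498 CPM (3886 to 5179). Lower under Hashtag2 were S100a10 (133 against 559 CPM) and Mpeg1, a pore-forming protein of phagocytes (401 against 1189 CPM).

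Against the 428 Mll4 deleted cells that carried the monocyte progenitor genes F13a1 and Ccr2, 6.18% of 9098 genes were called higher in class II high non-B cells and 9.13% lower. The leukocyte cytoskeletal gene Lsp1 stood at 1189 CPM in class II high cells and 21.9 CPM in the monocyte progenitors, and Plbd1 at 865 and 27.8 CPM. Primary granule genes went the other way, with Mpo at 386 and 7132 CPM, Elane at 278 and 5188 CPM, and the monocyte surface gene Ly6c2 at 107 and 1275 CPM. Against the 15 class II high cells with B transcripts, 24.6% of 3315 genes were higher in members and 8.27% lower. Ebf1, a B-lineage transcription factor, had no UMI in members and stood at 914 CPM in the cells with B transcripts. Klf2, a transcription factor of lymphocyte migration, was also lower in members (114 against 633 CPM).

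Surface antibodies, which the rule did not use, gave the members a profile shared in raw counts. Antibody values are median counts per cell with no normalization. As a share of all surface antibody counts, the CD48 and Sca1 differences were smaller in every library, and the Sca1 difference in Mll3 deleted nearly vanished. CD48, a SLAM family protein of blood cells beyond the stem cell, had a median of 1335 counts in control members against 475 in the other kept cells, 1500 against 399 in Mll3 deleted and 1751 against 203 in Mll4 deleted. In Mll4 deleted 97.6% of members lay above the median of the other cells. Sca1, a surface protein of stem cells and of activated leukocytes, had medians of 27 against 9, 25 against 12 and 49 against 12, and CD135, the Flt3 protein, 5 against 2, 7 against 2 and 10 against 3. CD117, the Kit protein by which the cells were sorted, was lower in members: 75 against 165 in control, 71 against 215 in Mll3 deleted and 80 against 111 in Mll4 deleted.

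Myeloid and B antigens told the members from their neighbours differently in each library. CD11b, an integrin of myeloid cells, had medians of 65 against 7 in control and 93 against 5 in Mll3 deleted, but 66 (quartiles 23.5 and 293.5) against 163 in Mll4 deleted. Gr1, a granulocyte and monocyte antigen, had medians of 37 against 31 in control and 67 against 186 in Mll4 deleted, and CD16_32, which marks Fc gamma receptors, 28 against 25 and 27 against 105. B220, a B-cell form of CD45 that other cells can carry, had medians of 10 against 4 in control, 17 against 7 in Mll3 deleted and 19 against 8 in Mll4 deleted, whereas the class II high cells with B transcripts had 613, 542 and 848. As a share of all surface antibody counts, members of control were lower than the other cells for B220 (0.914-fold), Gr1 (0.583-fold) and CD16_32 (0.676-fold), and members of Mll3 deleted for CD16_32 (0.628-fold), so those directions depend on the scaling.

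The clusters also differed at the surface, with values of antibodies that were not used to cluster. CD11b had a median of 215 counts in cluster 1, 26 in cluster 2, 46 in cluster 3 and 82 in cluster 4. CD48 had medians of 1485, 2397, 1080 and 1945, and CD16_32 stood at 22 in cluster 1 and 52 in cluster 2. CD117 was lowest in cluster 1, at a median of 62, and stood at 91.5, 94 and 110.5 in the others. The quartiles of CD11b did not overlap between cluster 1 (75 to 440) and cluster 2 (17 to 51.5).

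**Figure D5:**
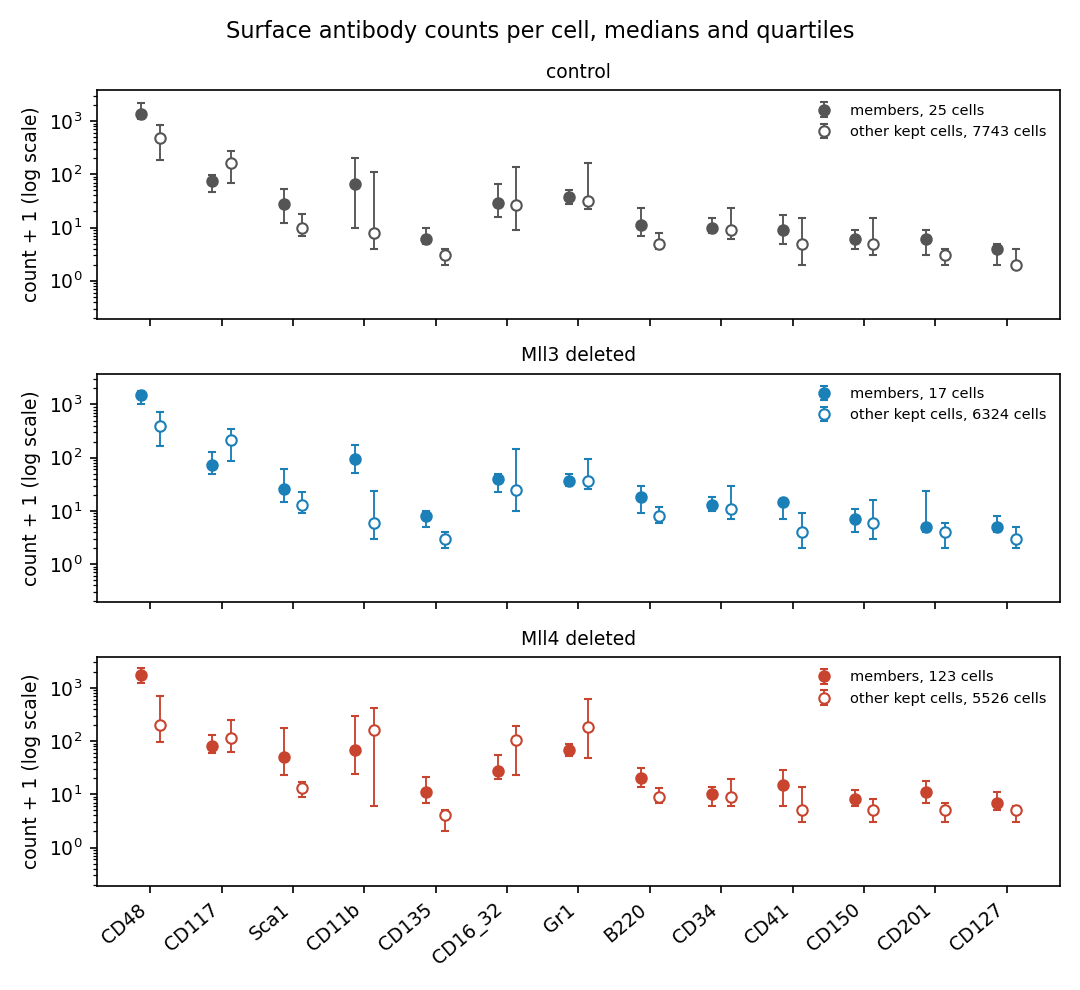
Median counts plus 1 (logarithmic axis) of 13 surface antibodies in class II high non-B cells and the other kept cells, with bars for the quartiles, in 3 panels for control, Mll3 deleted and Mll4 deleted. CD48, Sca1 and CD135 are higher and CD117 is lower in the members of all 3 libraries, and CD11b is higher in control and Mll3 deleted but lower in Mll4 deleted.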

How the data were processed

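The deposited matrices hold counts of UMIs per gene or antibody feature and cell barcode, unnormalized, made by the authors with Cell Ranger 6.1.2 on mm10, per the file headers and the submitters' processing notes. They cover 32285 gene and 15 antibody features (13 surface, 2 hashtags). Annotation release and cell calling settings are not given in the sources used here.

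Members and the 25 gene lists were chosen with earlier results of these data known. CPM and log2 ratios (pseudocount 10 CPM) were computed here from UMIs summed over cells, with numpy 2.4.6 and scipy 1.17.1. The ratio step was tested on simulated data. Intervals are exact Poisson for counts, Clopper-Pearson for shares and log-normal for ratios of shares, at 95%. A fold against no UMI uses a floor of 3 UMIs over the group. PCR, index hopping and free RNA were not corrected, and the intervals do not cover them.

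Named genes were the 12 highest and 12 lowest log2 ratios among genes with non-overlapping intervals, at least 20 UMIs in either group and UMIs in at least 5 cells of the higher group, without rule, Xist, Y-linked, mitochondrial, ribosomal protein and immunoglobulin genes; list genes are given as counts with examples. Hashtag classes came from 2-component Gaussian mixtures, doublet scores from Scrublet in scanpy 1.11.5 (expected rate 0.06; no cell was removed in the results unless stated), and clusters from leidenalg 0.10.2 at resolution 0.5. Another scaling used the TMM factors of edgeR 4.0.16. Promoters came from RefSeq on GRCm38.p6. Some genes of the lists and of the naming rule are not reported here.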

Additional observations from a re-analysis of the deposited data

How the results depend on the processing

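No paired analysis was possible because each group had 1 library. Removing the highest Scrublet scores gave shares of 0.0140% in control and 0.0853% in Mll3 deleted, and log2 ratios of shares of 2.61 for Mll3 deleted over control (reversed) and 7.2 for Mll4 deleted over control. Without the exclusion of B transcripts the share in Mll3 deleted was 0.804% and its log2 ratio 0.84 (reversed). Hashtag1-only cells gave 0.467% and 0.44 in Mll4 deleted, and Hashtag2-only cells 4.15% and 3.90.

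For Mll4 deleted over control members, a pseudocount of 50 CPM gave 71 genes higher and 30 lower and 0.91 for costimulation, a minimum of 50 UMIs gave 93 and 30, and no minimum 776 and 426, with 0.49 for costimulation and 0.43 for cDC2. Averaging cell shares gave 0.57 for cDC2, leaving out cells with both hashtags 3.14 for neutrophil genes, and excluding 6 more B genes 57 genes lower. Hashtag1-only members gave 40 genes higher and 108 lower, with -0.012 for class II pathway, -0.19 for costimulation (reversed), 1.08 for cDC1, 1.47 for neutrophil and 0.38 for immediate early genes. Hashtag2-only members gave 3.03 for neutrophil, 1.20 for S phase, -0.28 for G2/M and 2.0 for immediate early genes. Without cluster 4, 51 genes were lower, Ube2c was at 0.0035, neutrophil genes at 1.76 and G2/M genes at 0.57 (both Ube2c and G2/M reversed). TMM scaling gave 296 higher and 90 lower. Ratios without high-scoring cells were not computed, since 1 control member was left.

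For members over other cells of Mll4 deleted, a pseudocount of 1 CPM gave 1460 genes higher and 2625 lower, with 5.12 for class II pathway, 5.29 for costimulation, 6.40 for cDC1 and 2.34 for cDC2. A pseudocount of 50 gave 290 and 150, with 2.62, 1.17, 2.38 (cDC1), 0.52 (cDC2) and 1.0 for immediate early genes. No minimum gave 1.71 for costimulation. Neutrophil genes stood at -3.84 by cell shares, -4.80 without high-scoring cells (then 1131 genes lower and G2/M at -2.10), -3.33 without cells of both hashtags and -4.86 without cluster 4 (G2/M at -2.70).

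As shares of surface counts, antibody folds were 1.46 for CD48, 2.0 for Sca1, 0.228 for CD117, 0.914 for B220, 0.583 for Gr1 and 0.676 for CD16_32 in control (the last 3 reversed). In Mll3 deleted they were 1.78 for CD48, 2.15 for CD135, 1.07 for Sca1, 0.192 for CD117, 10.4 for CD11b, 1.26 for B220, 0.543 for Gr1 and 0.628 for CD16_32 (reversed). In Mll4 deleted they were 4.78 for CD48, 2.08 for Sca1, 0.463 for CD117, 0.266 for CD11b, 1.40 for B220 and 0.166 for Gr1. Resolution 1 gave 7 clusters, of which the highest in cDC2 markers held 31 cells, 25 of them Mll4 deleted, and thinning gave 2, of which the highest in cDC1 markers held 72 cells. Of the other alternative values, 236 for shares, counts, lists, antibodies and clusters and 440 for named genes stayed within 1.5 times or their interval, and 63 for named genes moved beyond their interval without a change of sign. The cause of these changes was not tested. The hashtag and cluster 4 settings were chosen after seeing the data.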
